A study of Mus musculus with 11 samples.

Results

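Imprinted growth genes were followed from the newborn to the adult brain and into culture in mouse microglia, the resident macrophages of the brain. The set held 10 genes listed by name, which were H19, Igf2, Dlk1, Meg3, Peg3, Plagl1, Cdkn1c, Grb10, Ndn and Mest. A gene entered when the RefSeq accession of an array probe could be paired with its symbol, and 8 of the 10 had such a probe. All 8 passed the filter on dim probes and were tested among 19555 genes, whereas H19 and Grb10 had no matched probe. RNA of C57BL/6N mice was hybridised to 11 single-colour Agilent arrays. A_FACS (2 arrays) held microglia sorted from adult female brains as CD45 intermediate, CX3CR1 high cells, and NB_FACS (3 arrays) held cells sorted from brains of both sexes in the first days after birth. NB_Control (3 arrays) held newborn-derived microglia that grew for weeks in mixed-glia flasks fed with conditioned medium of L-929, a mouse fibroblast line, were shaken off and were then kept in DMEM/F12 with serum for 1 day. NB_Stim (3 arrays) was prepared in the same way, with human TGF-β1, IL-34 and CX3CL1 added at 100 ng/mL each. Cells of a few newborn brains were pooled in each flask. Age and sex could therefore not be told apart, and neither could culture, time in the flask and mode of isolation. The labels do not say that replicates were separate animals or cultures, so the p-values measure the spread between these arrays only.

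Imprinted genes are expressed mainly from the copy inherited from one parent, under the control of DNA methylation laid down in the germ line. Igf2, Dlk1, Peg3, Plagl1, Ndn and Mest are usually expressed from the paternal copy, and H19, Meg3 and Cdkn1c from the maternal copy. Many of them act on fetal growth and are turned down in most tissues after birth. Array intensities cannot separate the parental copies, so that only the summed signal of both is described here.

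Values are quantile-normalised log2 intensities, averaged over the probes of a gene, and group values are means ± SD of the arrays. Levels are compared between groups for the same probes only. A gene was called when limma's two-sided test gave an adjusted p under 0.05. By the scanner's own flag 66.8% to 80.4% of the probes stood well above background. Slide 2 carried the third replicate of NB_FACS, NB_Control and NB_Stim, and slide 1 the other arrays. Precision is limited by the small number of arrays. All 10 tested microglia markers, among them Tmem119, P2ry12 and Cx3cr1, were well above background on every array of each group. Their levels still differed between groups. Their summed normalised intensity was 306800 to 322300 in A_FACS, 190600 to 208100 in NB_FACS, 77520 to 91420 in NB_Control and 176600 to 184200 in NB_Stim. In NB_Control against NB_FACS 6 of the 10 were called, all lower, beside 29.7% of all genes. Markers of other cells moved between groups as well. The summed normalised intensity of 6 erythroid genes was 148800 to 205000 in NB_FACS, 8566 to 25360 in A_FACS and 176.5 to 282.5 over both cultures, in the arbitrary units of the scanner. That of 10 fibroblast and meningeal genes was 989.6 to 1292 in NB_FACS, 227.6 to 593.3 in A_FACS and 7497 to 17600 over the cultures. Fewer cells of a type and less RNA per cell cannot be told apart in such bulk samples.

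**Figure D1:**
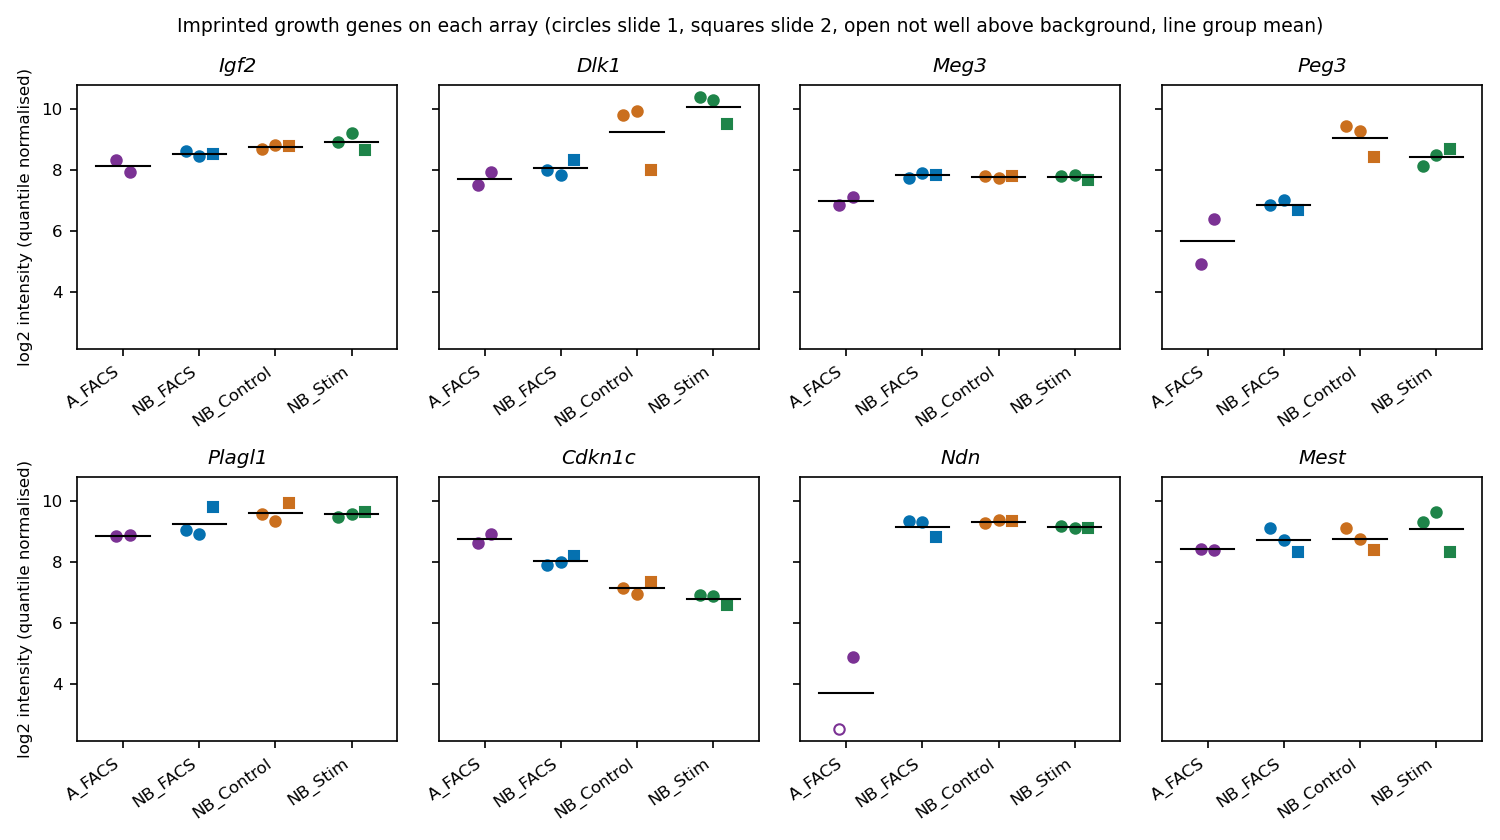
Quantile-normalised log2 intensity (vertical axis) of the 8 imprinted growth genes on each array, by group (horizontal axis). Each point is 1 array (circles slide 1, squares slide 2, open where not well above background), lines are group means, and heights are not comparable between panels. Ndn sat between 8.83 and 9.38 on all newborn-derived arrays and at 2.53 and 4.89 in A_FACS, while Peg3 and Dlk1 were highest in the cultured groups.

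The genes did not move as a block. In A_FACS against NB_FACS, 3 of the 8 genes were called (Ndn and Meg3 lower, Cdkn1c higher), beside 22.7% of all genes tested. In NB_Control against NB_FACS 2 were called (Peg3 higher, Cdkn1c lower), beside 29.7% of all genes. In NB_Stim against NB_FACS 3 were called (Dlk1 and Peg3 higher, Cdkn1c lower), beside 31.1% of all genes. Between NB_Stim and NB_Control limma called 0 of the 8, and 0 had an unadjusted p under 0.05, beside 3.41% of all genes called. That last background was 666 genes, and it was 1193 genes when replicate numbers were included as a block. The shares of the 8 genes lay near the background in the sorted comparison, in both culture comparisons and between the cultures, given that each gene is 12.5% of the set.

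Against the cultured groups A_FACS differed in more of them. In A_FACS against NB_Control 7 of the 8 were called, 6 lower and 1 higher, beside 40.8% of all genes, and Mest was the exception. The count was 4 without A_FACS replicate 2. In A_FACS against NB_Stim 6 were called, 5 lower and 1 higher, beside 40.2% of all genes, with Plagl1 and Mest uncalled. The median log2 difference of the 8 genes was -0.40 in A_FACS against NB_FACS, -0.78 against NB_Control and -0.81 against NB_Stim. Over all genes tested the corresponding medians were -0.01, -0.11 and -0.10. The comparisons with A_FACS share the same 2 adult arrays, and those with NB_FACS share its 3 arrays.

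Ndn encodes necdin, a MAGE family protein that restrains proliferation and is best known from postmitotic neurons. It was read by 1 probe, whose sequence is shown because the largest change of the set rests on it. Its first 30 bases, written 5′ to 3′ as the scanner files list them, are as follows.
Ndn, probe MMXS00379: tggactgatttgaactggactgttctcagt

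In NB_FACS the 3 arrays gave 9.34, 9.31 and 8.83 for Ndn. The 2 adult arrays gave 2.53 and 4.89. The newborn arrays all stood far above the adult ones, and the adult array at 2.53 was not well above background, so that 1 of the 2 adult arrays measured the gene. The log2 difference was -5.45 (SE 0.52, adjusted p = 1.18e-04) in the fit, which takes the value below background as it stands. With that array raised to its lowest signal well above background, Ndn was 29.5-fold lower in A_FACS, or 4.88 lower on the log2 scale. That floor is no strict limit of detection, because probes above it can lack the flag, so the fold is approximate. The fitted difference was -4.28 without A_FACS replicate 1. Without A_FACS replicate 2, the array that measured it, Ndn was 5.50 lower on the log2 scale by the same floor. The call of Ndn held with any 1 of the 11 arrays left out. Within slide 1, which held both adult arrays, the difference was -5.62.

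In culture Ndn stood close to its level in NB_FACS. NB_Control gave 9.28, 9.38 and 9.35 and NB_Stim gave 9.19, 9.14 and 9.12. The order of the means was NB_Control 9.33 ± 0.052, NB_FACS 9.16 ± 0.29, NB_Stim 9.15 ± 0.036 and A_FACS 3.71 ± 1.67 (SD, n = 3 each and n = 2 for A_FACS). NB_Control and NB_FACS overlapped, as did NB_FACS and NB_Stim. NB_Control lay 0.17 above NB_FACS (SE 0.46, adjusted p = 0.825), and NB_Stim lay 0.01 below it (adjusted p = 0.985). Erythroid markers were lower in the cultures than in NB_FACS and summed fibroblast markers were higher (ranges above). Their part in the cultured values of Ndn was not tested. Of the 10 fibroblast and meningeal markers tested, 2 were well above background on both adult arrays and 8 on all NB_FACS arrays. Both that list and Ndn were higher in A_FACS replicate 2 than in replicate 1, with log2 summed levels of 9.21 and 7.83 for the list. The choroid plexus and ependymal list (16.93 and 14.08), the erythroid list (14.63 and 13.06), the endothelial list (13.74 and 12.74) and the mural list (13.38 and 12.84) were also higher in replicate 2, while the neuron list was lower (12.23 and 12.84). The part of these markers in the adult values was not tested.

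Meg3 is a long non-coding RNA transcribed from the maternal copy of the Dlk1 domain on chromosome 12, next to Dlk1. It was read by 3 probes. They are shown in full because they did not tell the same story.
Meg3, probe MMXS12291: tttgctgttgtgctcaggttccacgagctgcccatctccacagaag
Meg3, probe MMXS16887: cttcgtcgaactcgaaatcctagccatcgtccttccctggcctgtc
Meg3, probe MMXS26259: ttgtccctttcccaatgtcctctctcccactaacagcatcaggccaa

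As a mean of the 3 probes, Meg3 was at 7.75, 7.92 and 7.83 in NB_FACS and at 6.83 and 7.10 in A_FACS. The adult arrays lay below all others. The log2 difference was -0.87 (SE 0.14, adjusted p = 0.00179), a 1.82-fold lower signal, and it was called with any 1 of the 11 arrays left out. The cultured groups stayed at 7.78 ± 0.028 in NB_Control and 7.77 ± 0.089 in NB_Stim, beside 7.83 ± 0.085 in NB_FACS (SD, n = 3 each). These 3 groups overlapped, with log2 differences from NB_FACS of -0.06 in each (SE 0.12).

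Single probes were then fitted over 28027 probes, of which 21.5% were called in A_FACS against NB_FACS. Probe MMXS16887 showed the larger fall, from 6.20 ± 0.14 to 4.75 ± 0.088 (-1.45, SE 0.18, adjusted p = 6.17e-04). Probe MMXS12291 fell from 7.75 ± 0.15 to 6.73 ± 0.28 (-1.02, adjusted p = 0.00385). Probe MMXS26259 was at 9.54 ± 0.17 in NB_FACS and 9.41 ± 0.19 in A_FACS (-0.12, SE 0.20, adjusted p = 0.709), with overlapping arrays. It was highest in the cultures, at 9.91 ± 0.11 in NB_Control and 9.98 ± 0.28 in NB_Stim, and was called in A_FACS against NB_Stim only (adjusted p = 0.0431). The fall of Meg3 in the adult therefore rested on 2 of its 3 probes. Where in the transcript the probes lie was not analysed here.

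Cdkn1c encodes p57Kip2, an inhibitor of cyclin-dependent kinases that is expressed from the maternal copy and restrains growth. It was the one gene of the set that was higher in the adult. Both of its probes passed the filter, and the first 30 bases of each are shown because their profiles differed.
Cdkn1c, probe MMXS09422: gatcaagaagctgtcggggcctctcatctc
Cdkn1c, probe MMXS52304: acagtgtcccccacttcattagattgctct

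The mean of the 2 probes was 8.64 and 8.91 in A_FACS. In NB_FACS it was 7.91, 8.02 and 8.21, in NB_Control 7.14, 6.97 and 7.35, and in NB_Stim 6.93, 6.89 and 6.59. The groups stood in a descending order without overlap. The adult mean exceeded that of NB_FACS by 0.73 (SE 0.18, adjusted p = 0.0172), or 1.66-fold. That call was lost without A_FACS replicate 2 (0.59, adjusted p = 0.116) and without NB_FACS replicate 1 (0.66, adjusted p = 0.0506). Both cultures were lower than NB_FACS, NB_Control by 0.89 (SE 0.16, adjusted p = 0.00223) and NB_Stim by 1.24 (adjusted p = 3.15e-04). For NB_Control the log2 difference was -0.91 within slide 1 and -0.85 within slide 2. For NB_Stim it was -1.06 and -1.62. NB_Stim lay 0.35 below NB_Control (SE 0.16), which did not pass the test (adjusted p = 0.346).

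Probe MMXS52304 alone carried these differences. It fell from 10.19 ± 0.36 in A_FACS through 8.80 ± 0.28 in NB_FACS and 7.05 ± 0.56 in NB_Control to 6.40 ± 0.16 in NB_Stim (SD). By single probe fits it was called in A_FACS against NB_FACS (1.39, adjusted p = 0.0114), in NB_Control against NB_FACS (-1.75, adjusted p = 0.00113, beside 28.9% of probes) and in NB_Stim against NB_FACS (-2.40, adjusted p = 1.7e-04, beside 30.2% of probes). Probe MMXS09422 had means between 7.21 and 7.35 in the 4 groups and was called in none of the 6 comparisons. Its lowest unadjusted p was 0.604, in A_FACS against NB_Stim. The averaged value of Cdkn1c therefore lay between a probe that moved and a probe that did not pass the test.

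**Figure D2:**
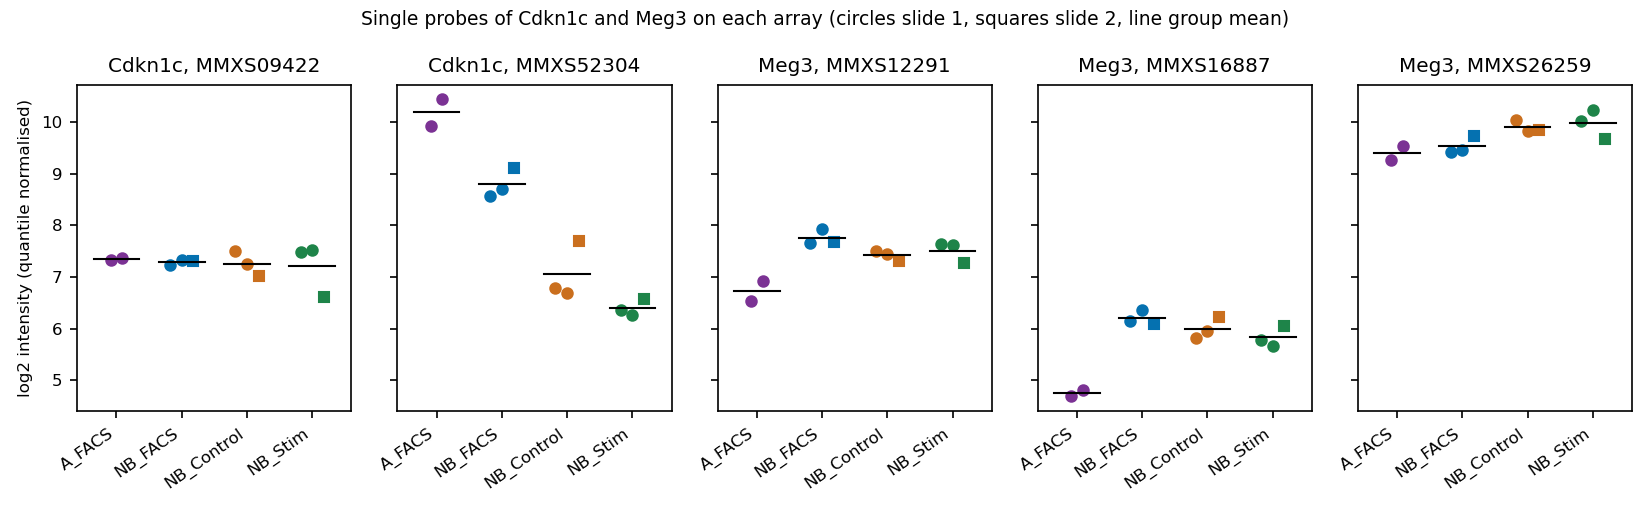
Quantile-normalised log2 intensity (vertical axis) of the 2 probes of Cdkn1c and the 3 probes of Meg3 on each array, by group (horizontal axis). Points are arrays (circles slide 1, squares slide 2) and lines are group means. MMXS52304 of Cdkn1c stepped down from A_FACS to NB_Stim while the group means of MMXS09422 stayed between 7.21 and 7.35, and MMXS26259 of Meg3 lacked the adult fall of the other probes.

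Marker lists differed between these groups as well, not all in the order of Cdkn1c. The summed signal of 10 endothelial markers, Cldn5, Pecam1 and Cdh5 among them, was 6847 to 13690 in A_FACS, 5030 to 6833 in NB_FACS, 1042 to 1156 in NB_Control and 2107 to 2487 in NB_Stim. From NB_Control to NB_Stim 5 of the 10 were higher and 5 lower, with 1 called. Flt1 rose most, from 7.61 ± 0.54 to 10.39 ± 0.12, while Cldn5, Pecam1 and Cdh5 were lower in NB_Stim. All 10 were well above background on both adult arrays, 9 in NB_FACS, 6 in NB_Control and 5 in NB_Stim. The summed signal of 6 choroid plexus and ependymal markers was 17370 to 124500 in A_FACS, 17870 to 56540 in NB_FACS and 1117 to 6012 over the cultures. In the sorted groups it was mostly Ttr, at 15.47 ± 2.05 in A_FACS and 15.05 ± 0.96 in NB_FACS on the log2 scale. Of the 6 markers, 2 were called in A_FACS against NB_FACS, both lower. The 12 proliferation markers, Mki67 and Top2a among them, summed to 47920 to 56890 in NB_FACS, 9992 to 10150 in A_FACS and 7753 to 15530 over the cultures. That sum was lower than in NB_FACS in A_FACS and in both cultures. The part of these cells, and of proliferation, in the Cdkn1c values was not tested.

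Peg3 encodes a large zinc finger protein, expressed from the paternal copy, that acts in growth, maternal behaviour and cell death. Its probe began with the following 30 bases, shown because Peg3 had the largest rise of the set in NB_Control against NB_FACS.
Peg3, probe MMXS17643: cccagaccccttgagactgattgtgtaacc

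In NB_FACS it was at 6.84, 7.003 and 6.68. In NB_Control the arrays gave 9.43, 9.27 and 8.42, and in NB_Stim 8.14, 8.48 and 8.69. Every cultured array exceeded every sorted array. NB_Control was higher by 2.20 (SE 0.38, adjusted p = 0.00156), or 4.61-fold, and NB_Stim by 1.59 (SE 0.38, adjusted p = 0.00916), or 3.02-fold. Both calls held with any 1 of the 11 arrays left out. For NB_Control the difference was 2.43 within slide 1 and 1.75 within slide 2, and for NB_Stim it was 1.39 and 2.02. NB_Stim and NB_Control overlapped (-0.61, SE 0.38, adjusted p = 0.529), and the sign differed between slides, with -1.05 on slide 1 and 0.27 on slide 2.

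The adult arrays of Peg3 stood apart from each other, at 4.92 and 6.40, both below the lowest newborn array. Their difference from NB_FACS was -1.18 (SE 0.42) and did not pass the test (adjusted p = 0.0716). Without A_FACS replicate 2 it was -1.94 (adjusted p = 0.0102), and without A_FACS replicate 1 it was -0.44. From the cultures the adult arrays differed by -3.38 (NB_Control, adjusted p = 1.89e-04) and -2.78 (NB_Stim, adjusted p = 6.55e-04). The means ran from NB_Control (9.04 ± 0.54) through NB_Stim (8.43 ± 0.28) and NB_FACS (6.84 ± 0.16) to A_FACS (5.66 ± 1.04). Of the 10 fibroblast and meningeal markers tested, 6 were called higher in NB_Control and 8 in NB_Stim against NB_FACS, Col1a1, Col3a1 and Dcn in both. Of 7 mural markers 3 were called higher and 2 lower in each culture. All 10 fibroblast markers tested were well above background on every cultured array. The part of these markers in the Peg3 values was not tested.

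Dlk1 encodes a transmembrane protein of the Notch ligand family that keeps precursor cells, such as preadipocytes, from differentiating. A second probe of Dlk1, MMXS17454, was not well above background on any array and was not used. The probe that was kept began with these 30 bases, shown because it alone gives the level of Dlk1.
Dlk1, probe MMXS18990: tgctaccacgctatctaagaaccccttcct

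Sorted cells gave 7.99, 7.83 and 8.34 in NB_FACS and 7.50 and 7.92 in A_FACS, which overlapped (-0.34, SE 0.53, adjusted p = 0.694). NB_Stim was higher throughout, at 10.41, 10.28 and 9.51. Its difference from NB_FACS was 2.01 (SE 0.47, adjusted p = 0.00891), or 4.03-fold, with 2.43 on slide 1 and 1.17 on slide 2. It was called with any 1 of the 11 arrays left out. Without the filter on dim probes, where the dim probe enters the mean, the difference was 1.37 and the call was lost (adjusted p = 0.125).

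In NB_Control 2 arrays stood near NB_Stim, at 9.81 and 9.93, and replicate 3, on slide 2, was at 7.99 within the range of NB_FACS. The difference from NB_FACS was 1.19 (SE 0.47) and was not called (adjusted p = 0.0877). It was 1.96 within slide 1 and -0.35 within slide 2. Without NB_Control replicate 3 it was 1.80 (adjusted p = 0.00175), and with the slide as a block it was 1.19 and was called (adjusted p = 0.0401). NB_Stim and NB_Control differed by 0.82 (SE 0.47, adjusted p = 0.489), with 0.47 on slide 1 and 1.52 on slide 2. On that array the log2 summed level of the fibroblast and meningeal list was 14.10, beside 13.68 and 13.88 on the other NB_Control arrays. That of the choroid plexus and ependymal list was 10.13, beside 11.63 and 11.53, and that of the proliferation list 13.92, beside 13.33 and 13.29. Their part in the Dlk1 values was not tested. The call of Dlk1 in A_FACS against NB_Control (-1.53, adjusted p = 0.0408) held in 3 of the 11 fits with an array left out. In A_FACS against NB_Stim (-2.36, adjusted p = 0.00579) it held in 10, the exception being the fit without A_FACS replicate 1 (adjusted p = 0.0608).

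**Figure D3:**
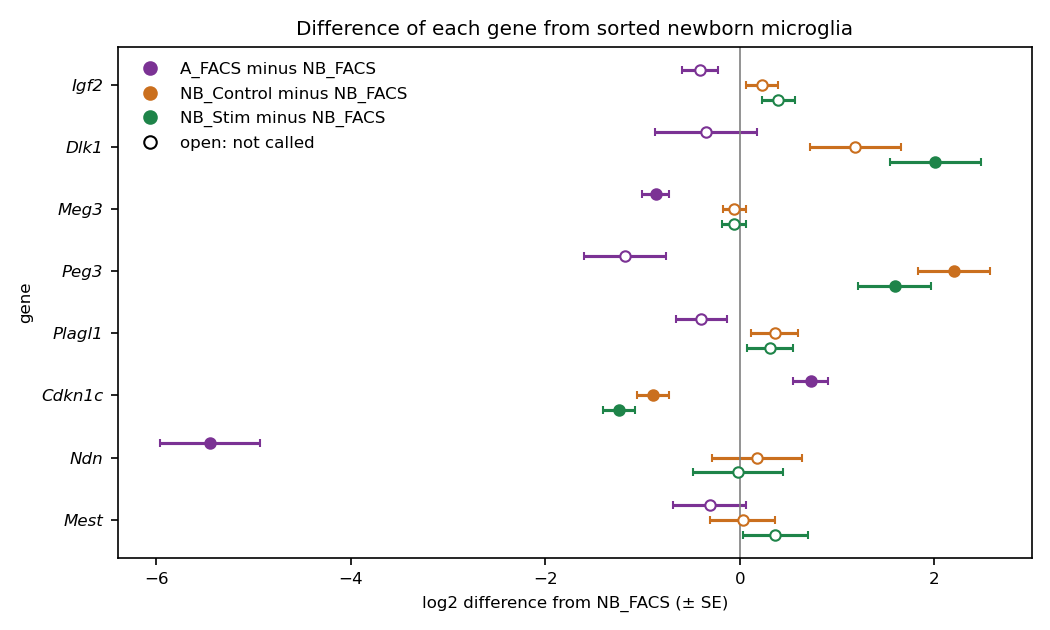
Log2 difference from NB_FACS (horizontal axis) for each of the 8 genes (vertical axis) in A_FACS, NB_Control and NB_Stim, with the standard error from limma as bars. Filled points were called, open points were not. The points of Cdkn1c lie to the right for A_FACS and to the left for both cultures, those of Peg3 the other way round, and Ndn was called in A_FACS alone, at -5.45.

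Igf2 encodes insulin-like growth factor 2, the paternally expressed fetal growth factor. Its changes were small. The 2 adult arrays gave 8.32 and 7.93, the NB_FACS arrays 8.61, 8.46 and 8.53, the NB_Control arrays 8.68, 8.81 and 8.79, and the NB_Stim arrays 8.92, 9.21 and 8.65. The groups rose in that order, and NB_Control and NB_Stim overlapped while their neighbours did not. Of the neighbouring differences none was called, with -0.41 for A_FACS against NB_FACS (SE 0.19, adjusted p = 0.152) and 0.23 for NB_Control against NB_FACS (SE 0.17, adjusted p = 0.362). The adult arrays were lower than NB_Control by 0.63 (adjusted p = 0.0218) and lower than NB_Stim by 0.80 (adjusted p = 0.00716). Without A_FACS replicate 2 both calls were lost (-0.44, adjusted p = 0.163, and -0.61, adjusted p = 0.065), and without NB_Control replicate 2 the first was lost (adjusted p = 0.0608).

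Plagl1, a zinc finger transcription factor that arrests the cell cycle, and Mest, a membrane protein related to hydrolases, were called in at most 1 of the 6 comparisons. Plagl1 ranged from 8.87 to 9.96 over the 11 arrays. Its adult arrays, at 8.87 and 8.88, lay below all the others. It was called in A_FACS against NB_Control (-0.75, adjusted p = 0.0467), a call that held in 3 of the 11 fits with an array left out, and was at -0.71 in A_FACS against NB_Stim (adjusted p = 0.0591). Without NB_FACS replicate 3, at 9.83 the highest of its group and on slide 2, Plagl1 was higher in both cultures than in NB_FACS (0.63, adjusted p = 0.0266, and 0.59, adjusted p = 0.0351). Mest was called in none of the 6 comparisons, and its arrays ranged from 8.34 to 9.64. Its lowest array in each newborn-derived group was the one on slide 2, at 8.34, 8.41 and 8.35. With the slide as a block Mest was called in A_FACS against NB_Control (-0.59, adjusted p = 0.0443) and against NB_Stim (-0.92, adjusted p = 0.00653).

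Receptors, binding proteins and regulators that act with Igf2 were examined next. Of 19 tested genes of the insulin-like growth factor pathway, 8 (42.1%) were called in A_FACS against NB_FACS, beside 22.7% of all genes. Of these 6 were lower and 2 higher. The median log2 difference of the 19 was -0.88, beside -0.01 over all genes. Igf2bp3, which encodes a fetal RNA-binding protein named for its binding of Igf2 messenger RNA, fell from 9.07 ± 0.027 to 2.25 ± 0.22 (-6.82, adjusted p = 3.2e-08). On 1 of the 2 adult arrays 1 of its 3 probes was well above background, and on the other array none was. With both adult values raised to their arrays' lowest signal well above background it was 56.9-fold lower, an approximate value. Igf1 was lower by 3.63 (adjusted p = 0.0161), with an SD of 2.95 between the adult arrays. Irs1, an adaptor of the receptors, was lower by 3.04 (adjusted p = 0.0117), with 1 adult array above background. The fold was 3.53 with the other raised to its lowest measured signal. Igfbp4 (-2.22) and Igfbp5 (-1.76), binding proteins of the factors, were lower as well. Igf2r, the receptor that clears Igf2 from the cell surface and is itself imprinted, was lower by 1.48 (adjusted p = 0.015). Insr, the insulin receptor (1.01, adjusted p = 0.0011), and Hmga2, a chromatin protein of fetal cells (1.57, adjusted p = 0.015), were higher.

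The same genes were then compared in culture. Against NB_FACS, 9 of the 19 genes (47.4%) were called in NB_Control, 6 higher and 3 lower, beside 29.7% of all genes. The median was 0.59, beside 0.09 over all genes. Hmga2 rose by 5.91 (adjusted p = 2.49e-06), Igf2r by 3.36 (adjusted p = 4.79e-05) and Igfbp6 by 2.70 (adjusted p = 0.0018). Igf2bp3 was lower by 1.05, Hmga1 by 0.66 and Irs2 by 0.54. In NB_Stim 10 of the 19 (52.6%) were called, 6 higher and 4 lower, beside 31.1% of all genes. The rises of Hmga2 (5.29), Igfbp5 (4.63) and Igfbp3 (2.65) were the largest there. The largest falls were those of Igfbp4 (-2.69), Igf2bp3 (-1.66) and Hmga1 (-1.41).

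Between NB_Stim and NB_Control 4 of the 19 pathway genes (21.05%) were called, beside 3.41% of all genes. None of the 8 imprinted growth genes was called, which lies near that background for a set of 8. Igfbp5 was higher with cytokines by 4.43 (SE 0.48, adjusted p = 0.00112), or 21.6-fold. Igfbp4 was lower by 2.74 (adjusted p = 1.37e-04), Igf2bp2 by 1.49 (adjusted p = 0.031) and Igf2bp3 by 0.61 (adjusted p = 0.0454). The median of the pathway was -0.09, beside 0.00 over all genes. These 4 calls were not followed under other settings. With replicates 1 and 2 of each culture averaged, 118 genes in all were called instead of 666.

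**Figure D4:**
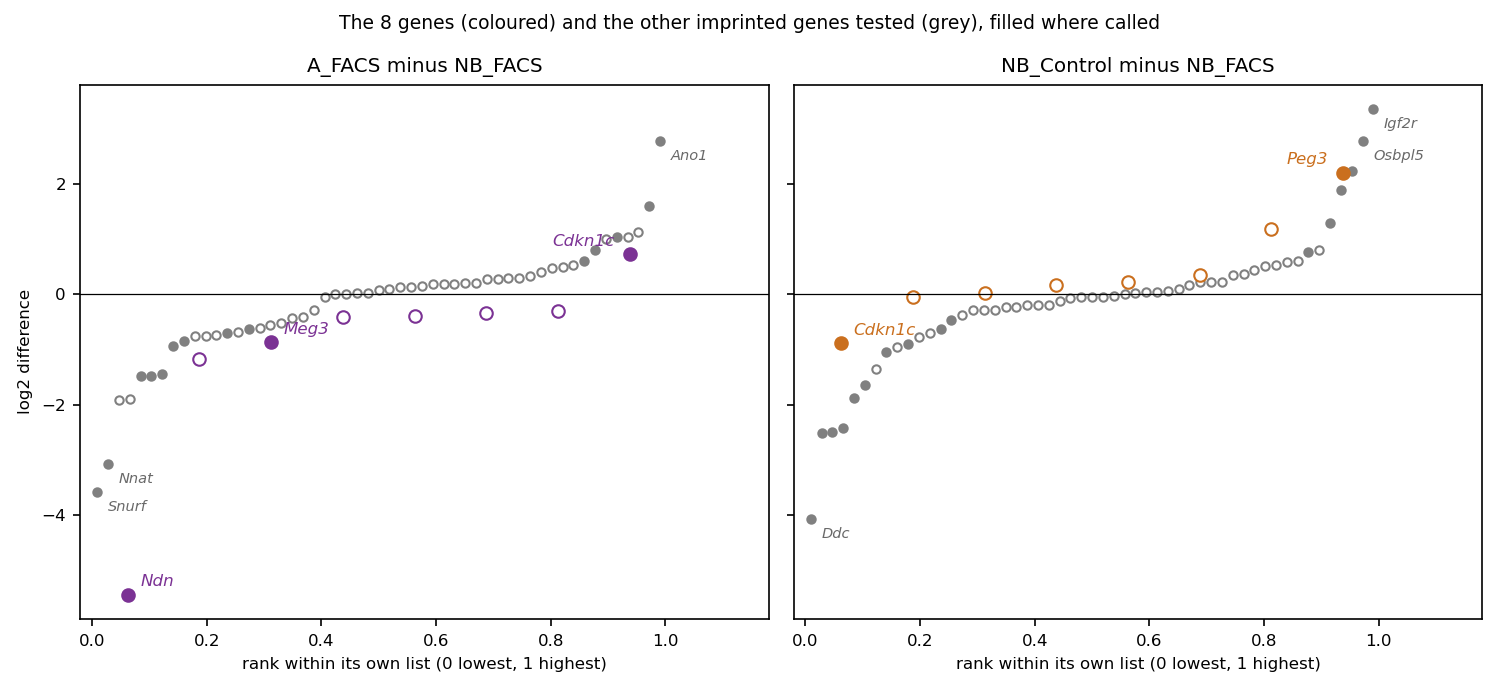
Log2 difference from NB_FACS (vertical axis) of the 8 genes (coloured) and of 53 other imprinted genes (grey), each ranked within its own list (horizontal axis), for A_FACS on the left and NB_Control on the right. Filled points were called. Most grey points lie near 0 on both sides, and Ndn, at -5.45, lies below all of them in A_FACS.

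Other imprinted genes moved in both directions. Of 53 tested, 14 (26.4%) were called in A_FACS against NB_FACS, 5 higher and 9 lower, with a median of 0.08, beside 22.7% of all genes called. Near Ndn on chromosome 7 lies Snurf, which shares its transcript with Snrpn, and it was lower in the adult by 3.59 (SE 0.83, adjusted p = 0.0122), from 6.35 ± 0.20 to 2.76 ± 2.26. 1 of the 2 adult arrays measured Snurf above background, and with the other raised to its lowest measured signal Snurf was 5.05-fold lower. Magel2, a MAGE gene of the same cluster, was higher by 0.61 (6.55 ± 0.16 against 5.94 ± 0.21, adjusted p = 0.0452). Among the called genes of the Ndn cluster, Magel2 alone was higher, with an adjusted p near the threshold. Of others there, Mkrn3 was at 6.89 ± 0.17 in NB_FACS and 6.18 ± 0.035 in A_FACS, and Snrpn at 7.57 ± 0.19 and 5.66 ± 1.82. Peg12 went the other way, at 7.40 ± 0.46 and 7.69 ± 0.072. Rian and Mirg are non-coding RNAs that lie beyond Meg3 in the Dlk1 domain and, like it, are expressed from the maternal copy. Rian was lower in the adult by 1.48 (4.98 ± 0.16 against 6.46 ± 0.17, adjusted p = 0.00121) and Mirg by 1.44 (adjusted p = 0.0113). Mirg was above background on 1 of the 2 adult arrays, and 2.63-fold lower with the other raised in the same way. In NB_Control against NB_FACS neither was called (Rian 0.05, adjusted p = 0.887, and Mirg 0.61, adjusted p = 0.157), nor was Meg3.

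Nnat, which encodes a small membrane proteolipid of the developing brain, was lower in the adult by 3.08 (adjusted p = 0.0013). The rises were those of Ano1, a chloride channel (2.78, adjusted p = 0.0281, with 2 of the 3 NB_FACS arrays above background), Zrsr1 (1.60), Gnas, the stimulatory G protein subunit (1.04, adjusted p = 0.00215), and Tssc4 (0.80). In NB_Control 16 of the 53 (30.2%) were called, 6 higher and 10 lower, with a median of -0.05, beside 29.7% of all genes called. Igf2r, which is on both lists, Osbpl5 (2.77, adjusted p = 0.0012) and the amino acid transporter Slc38a4 rose most. Slc38a4 was not well above background on any NB_FACS or NB_Stim array and passed the filter through NB_Control, where all 3 arrays had the flag. Its tests against NB_Control are thus not independent of that filter. Slc38a4 was 2.12-fold higher in NB_Control with the NB_FACS arrays raised (adjusted p = 0.00838). That approximate fold sets the bright group against the lowest signal that counted as well above background on each dim array. Ddc, the enzyme that decarboxylates dopa, was 9.85-fold lower by the same floor (adjusted p = 6.74e-04), and Gatm (-2.52) and Tspan32 (-2.50) were lower too. In NB_Stim against NB_FACS 14 (26.4%) were called, 6 higher and 8 lower, beside 31.1% of all genes. Osbpl5 (2.36), Igf2r (2.29) and Zrsr1 (1.12) were the highest. Peg10, a gene derived from a retrotransposon, was lower there (-2.59, adjusted p = 0.00232), as were Tspan32 (-2.29) and Ddc (9.61-fold by the same floor). Between the cultures 3 (5.66%) were called, beside 3.41% of all genes. Gatm was higher in NB_Stim by 1.60 (adjusted p = 0.00229) and Ampd3 lower by 1.16 (adjusted p = 0.0175). Slc38a4, which passed the filter through NB_Control and not through NB_Stim, was 2.25-fold lower by the same floor (adjusted p = 0.038).

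Genes related to the listed set by family or by function were also examined. Grb2 and Grb14 stand beside Grb10, which was itself not tested. The Cdkn2 genes share the inhibition of kinases with Cdkn1c but belong to another family. Of 11 tested, 4 (36.4%) were called in A_FACS against NB_FACS, beside 22.7% of all genes. Grb14, an adaptor of the family of Grb10, was higher by 1.97 (adjusted p = 0.0119). Dlk2, the close relative of Dlk1, was lower by 1.65 (adjusted p = 0.00466), Cdkn2a by 1.04 and Maged2, a relative of Ndn, by 0.76. Dlk2 was above background on 1 of the 2 adult arrays, and 2.69-fold lower with the other raised to its lowest measured signal. In NB_Control against NB_FACS 6 of the 11 were called and in NB_Stim 7, beside 29.7% and 31.1% of all genes. The kinase inhibitor genes Cdkn2a (2.67, adjusted p = 1.96e-06) and Cdkn2b (2.18, adjusted p = 1.18e-04) rose in NB_Control, as did Grb14 (2.70), while Cdkn2d (-0.61) and Plagl2 (-0.52) fell. In NB_Stim Cdkn2a (2.65), Grb14 (2.30) and Cdkn2b (1.62) rose, and Plagl2 (-1.06), Cdkn2d (-0.74) and Grb2 (-0.43) fell. Between the cultures limma called 0 of the 11, beside 3.41% of all genes, and 3 had an unadjusted p under 0.05. Cdkn1a and Cdkn1b, the nearest relatives of Cdkn1c, are given after their values were seen. Cdkn1a differed by 0.00 and Cdkn1b by 0.37 in A_FACS against NB_FACS (adjusted p = 0.999 and 0.308), and by -0.12 and 0.07 in NB_Control against NB_FACS (adjusted p = 0.715 and 0.844).

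Genes that set or keep the methylation of imprinted regions were mostly lower than in NB_FACS where they were called. Of 8 tested, 2 (25%) were called in A_FACS against NB_FACS, both lower, a share near the 22.7% of all genes. Uhrf1, which brings the maintenance methyltransferase to newly copied DNA, was lower (-4.30, adjusted p = 1.2e-05), and so was Dnmt1, that methyltransferase (-2.03, adjusted p = 6.12e-04). In NB_Control 5 of the 8 were called, 4 lower and 1 higher, beside 29.7% of all genes. Uhrf1 (-3.96), Ctcf (-0.84) and Trim28 (-0.75) were lower and the de novo methyltransferase Dnmt3a higher (0.71, adjusted p = 0.0248). In NB_Stim 6 were called, beside 31.1% of all genes, among them Uhrf1 (-4.85), Dnmt1 (-0.74), Ctcf (-0.73) and Dnmt3a (0.89). Between the cultures 0 of the 8 were called by limma, beside 3.41% of all genes, and 2 had an unadjusted p under 0.05. Uhrf1 and Dnmt1 are also known to rise in dividing cells, and the proliferation list moved the same way (11 of 12 genes called lower in A_FACS and 12 of 12 in each culture against NB_FACS). Its part in these values was not tested.

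**Figure D5:**
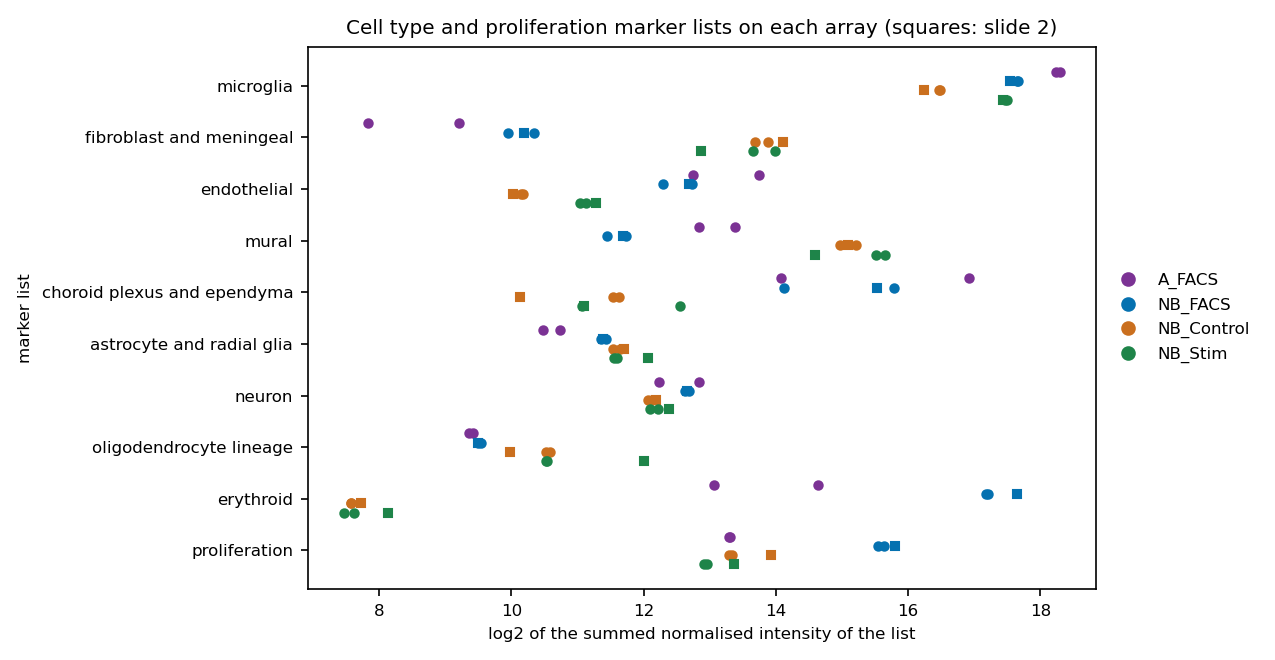
Log2 of the summed normalised intensity (horizontal axis) of each marker list (vertical axis) on each array, coloured by group, with squares for slide 2. The summed erythroid and proliferation lists were highest in NB_FACS, the summed fibroblast list was highest in the cultures, and the summed endothelial list was higher in the sorted groups.

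Profiles over the 11 arrays were compared after each gene was centred on its own mean, by the mean absolute log2 distance. Outside the set, Dlk1 lay nearest to Bnip3 (0.167), Eno1 (0.212), Eno1b (0.251), 4931419H13Rik (0.257) and Fam162a (0.276). Eno1 and Eno1b are near-identical copies whose probes may not be separate measurements. Bnip3, for example, ran from 11.11 ± 0.14 in A_FACS and 11.41 ± 0.31 in NB_FACS to 12.42 ± 0.76 in NB_Control and 13.36 ± 0.44 in NB_Stim. Igf2 lay nearest to Ugt1a5 (0.067), Il27 (0.074), Dmrta1 (0.078), Epb41l5 (0.08) and Ncdn (0.08), all of which varied as little as Igf2. For Ndn, which was added after its values were seen, the nearest were Rnd3 (0.387), Gpx3 (0.442), Nefm (0.503), Tram1l1 (0.519) and Shtn1 (0.552). Within the set Dlk1 and Peg3 were each other's nearest, at 0.695. These distances are descriptions over arrays that share 4 groups.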

How the data were processed

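RNA was labelled with Cy3. The authors deposited scanner files with a background-subtracted intensity per spot from Feature Extraction 11.5.1.1, and a series table that holds the same intensity before normalisation (62927 entries, 0 values beyond a tolerance of 1e-05). The scanner files name probes by RefSeq accession. Accessions were paired with symbols through a RefSeq table (GRCm38.p6, used for names and neighbours only). Of 60037 probes 36264 matched. Repeated spots were averaged without flagged outliers, and log2 intensities of all probes were quantile normalised in limma 3.58.1 (R 4.3.3). A probe was kept if all arrays of 1 or more groups flagged it as well above background, and kept probes were averaged to genes. One limma model with a mean per group (7 residual degrees of freedom) gave 6 comparisons, with Benjamini-Hochberg adjustment over 19555 genes. Folds with dim values raised were added after the values were seen: a value below the lowest signal flagged well above background on its array was raised to that signal. This was done for adult arrays, and for newborn-derived groups in which no array had the flag. Probes without the flag can lie above that signal, so none of these folds is a strict bound. The fit was checked on simulated data with independent noise on each array and changes in A_FACS only. That check had no slide effect and no shared deviation between arrays, so it does not cover them. The genes described, the gene lists and the tests were chosen with earlier results of these data known. From the lists, called genes are named by the size of their change, at most 5 per direction for A_FACS against NB_FACS and 3 for the other comparisons. The 5 nearest profiles were set for Igf2 and Dlk1. Not tested for want of a probe above background were Rtl1, Dio3, Calcr, Grb7, Plag1, Zfp57 and Igfbp1, and Zim1, Asb4, Blcap, Nespas, Maged1, Dppa3 and Lin28b were not matched. Replicate numbers come from the sample titles. Deviations of same-numbered arrays correlated at 0.112 to 0.489 over 9 pairs of newborn-derived groups, whereas the 6 pairs with A_FACS gave -0.069 to 0.168. Differently numbered newborn-derived arrays on slide 1 correlated at similar values. These ran from 0.185 (NB_FACS replicate 2 and NB_Control replicate 1) to 0.364 (NB_Control replicate 2 and NB_Stim replicate 1). Replicate 3 of each newborn-derived group was its array on slide 2. A pairing by number beyond the shared slide was therefore not shown, and the replicate block is an alternative only. Alternatives are listed with their effect below. Figures were drawn with matplotlib 3.10.9.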

Additional observations from a re-analysis of the deposited data

How the results depend on the processing

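Over 432 recomputed log2 differences of the 8 genes under other settings, 414 kept direction and call, 10 lost the call, 8 gained it and 0 reversed a called direction. With 1 array left out these numbers were 499, 22, 7 and 0 of 528, and with the single probes of Cdkn1c and Meg3, an alternative chosen after seeing the data, 23, 7, 0 and 0 of 30. Uncalled values changed sign in 9, 9 and 4 cases. With the brightest probe of a gene Meg3 lost its call in A_FACS against NB_FACS (-0.12) and against NB_Control (-0.50). Averaging replicates 1 and 2 of each culture left 4 genes of the set called in A_FACS against NB_Control. The count of all genes in NB_Stim against NB_Control was 1009 with normexp background correction, 1476 with the slide as a block and 118 with those replicates averaged. With the replicate number as a block that count was 1193. The block changed no call of the 8 genes among the newborn-derived groups. In the comparisons with A_FACS, where the numbers showed no pairing either, it added Peg3 against NB_FACS (-1.27, adjusted p = 0.0483) and Mest (-0.92) and Plagl1 (-0.55) against NB_Stim. With 1 array left out, all genes called ranged from 2288 (without A_FACS replicate 1) to 5132 in A_FACS against NB_FACS, 4520 to 6461 in NB_Control against NB_FACS, 297 to 699 in NB_Stim against NB_Control, 4650 to 6586 in NB_Stim against NB_FACS, 5039 (without A_FACS replicate 1) to 8711 in A_FACS against NB_Control and 4684 (without A_FACS replicate 1) to 8376 in A_FACS against NB_Stim. The low counts between the cultures were 332 and 333 without NB_Control replicates 1 and 2 and 297 and 310 without NB_Stim replicates 1 and 2. Of the 8 genes, those called ranged over 2 to 3, 2 to 3, 0 to 0, 3 to 4, 4 (without A_FACS replicate 2) to 7 and 5 to 7 in the same order. A lone adult array was then assumed to vary like the other groups. With 2 adult arrays and 1 probe for most genes, small differences could not be resolved, and Ndn on A_FACS replicate 1 was below the level that counts as measured. The causes of these shifts were not tested.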
